A study of Mus musculus with 47 samples.

Results

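The neurotrophin genes described here are a ligand pair, brain-derived neurotrophic factor (Bdnf) and neurotrophin 3 (Ntf3), and 4 receptors, TrkB (Ntrk2), TrkC (Ntrk3), the p75 receptor (Ngfr) and sortilin (Sort1). They were chosen by name, and all 6 were found among the 55416 gene identifiers of both tables and passed the filter on low counts in both sexes, where 22197 genes were tested in males and 20344 in females. RNA came from the brains of 3xTg mice, which carry human transgenes for mutant APP, tau and presenilin, and no library of a mouse without the transgenes was analysed here. The mice were 6 months old when they were moved to an amino acid-defined Control diet or to a diet low in 1 branched-chain amino acid, which was isoleucine for IleR, leucine for LeuR or valine for ValR. They stayed on that diet for 9 months. Control had 4 male and 6 female libraries, IleR 3 and 5, LeuR 3 and 6, and ValR 4 and 6. Of 24 male libraries in the labels, 10 are not analysed here, and the methods state that outliers seen in a principal component analysis were removed. The tissue is given as the left hemisphere in the methods, other text speaks of the whole brain, and the extraction protocol in the labels is written for liver. Total counts ran from 12682687 to 25722333 per male library and from 10672599 to 21370973 per female library. A library is named here by its diet and label number.

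Neurotrophins are secreted proteins that keep neurons alive and change the strength of their synapses. The mature forms act through Trk receptor tyrosine kinases, with TrkB binding BDNF and TrkC binding neurotrophin 3, while the uncleaved proforms bind p75 together with sortilin. In the adult brain, BDNF is made by excitatory neurons of the cortex and hippocampus and its transcription follows neuronal activity, and p75 is a known mark of the cholinergic neurons of the basal forebrain.

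The ligand and the receptor that moved in opposite directions on all the restricted diets in males were Bdnf and Ngfr, and sequence just before a start of each is shown for that reason. RefSeq start windows, 250 bases before to 50 after a start, were at hand for 4 of the 6 genes, with 7 for Bdnf, 2 for Ntf3, 1 for Ntrk2 and 1 for Ngfr. The cyclic AMP response element TGACGTCA, read on both strands, was in none of the 11 windows and in 1.79% of 32851 such windows of the genome. The near-match TGACGTGA was in 1 window, that of an internal Bdnf start, against 0.441% of all windows. GGGCGG, the core of a GC box, was in the Ngfr window and in 5 others of the 11, against 35.7% of all. The bases before this Bdnf start (GRCm38.p6, chr2:109692186-109692435, plus strand, between annotated exons of the gene) carry the near-match in capitals, and those before the annotated Ngfr gene (chr11:95587736-95587948, minus strand) carry GGGCGG in capitals. A match of letters does not show that a factor binds there.
Bdnf internal start: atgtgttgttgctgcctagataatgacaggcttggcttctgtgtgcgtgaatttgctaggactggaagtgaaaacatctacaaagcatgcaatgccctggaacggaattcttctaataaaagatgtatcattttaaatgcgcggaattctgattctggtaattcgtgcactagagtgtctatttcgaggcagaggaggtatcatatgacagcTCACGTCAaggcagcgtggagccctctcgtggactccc
Ngfr: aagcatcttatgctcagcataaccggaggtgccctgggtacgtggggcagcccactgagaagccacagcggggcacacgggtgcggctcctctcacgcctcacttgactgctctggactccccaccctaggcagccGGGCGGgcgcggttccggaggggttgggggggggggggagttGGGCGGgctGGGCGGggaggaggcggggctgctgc

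The libraries of restricted males stood apart in markers of brain region, and this goes before any result below. To place each library on a scale, the mean log2 level of forebrain markers was subtracted from that of cerebellar and brainstem markers, in CPM (counts scaled to a library of fixed size), and the difference is called the hindbrain score. Control-fed males lay between -7.93 and -5.41 on it and the 10 restricted males between -3.41 and 7.42, without overlap. The 8 forebrain markers, which include Tbr1, summed to between 691 and 1880 CPM in Control-fed males and to between 8.92 and 336 CPM in restricted males. The 8 cerebellar markers summed to between 33.4 and 81.5 CPM in Control-fed males and to between 225 and 4648.5 CPM in restricted males, and Gabra6, of cerebellar granule cells, had at most 1 count in any Control-fed male. The brainstem and spinal cord markers Hoxa5, Hoxb5 and Hoxc4 had 0 counts in every Control-fed male, and the 8 of that list summed to between 0.559 and 9.42 CPM in Control-fed males and to between 2.65 and 639 CPM in restricted males, with 1 LeuR-fed male within the Control range. In females the score ran from -7.42 to 0.161 on Control and from -7.45 to 6.03 on the restricted diets. LeuR 21 was the restricted male nearest to Control, with a score of -3.41, and it stood apart in the forebrain markers only. Its cerebellar mean log2 level of 1.26 was below that of Control 4 (1.35). With the forebrain markers left out, its score of -0.405 lay within the range of Control-fed males, -1.16 to -0.0362. LeuR 45 was the female with the highest score. Of the other marker lists in males, edgeR called 3, 2 and 3 of 7 astrocyte markers higher and 1 lower on IleR, LeuR and ValR, 1 of 6 pan-neuronal markers higher and 1 lower on each diet, 2, 0 and 2 of 5 dentate gyrus markers higher, and 0 of 7 oligodendrocyte and 0 of 7 vascular markers. Of all genes, 6.63%, 3.81% and 11.1% were called higher and 8.68%, 6.33% and 12.4% lower on these diets. The oligodendrocyte markers summed to 4661 to 9762 CPM in Control-fed males and to 10392 to 15174 CPM on IleR, without overlap. Their sums were 6558 to 18275 CPM on LeuR and 9657 to 16628 CPM on ValR. The part of these marker differences in the results below was not tested, and in bulk RNA fewer cells of a type cannot be told apart from less RNA per cell.

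In Control-fed males, Sort1 and Ntrk2 were the most abundant of the 6 genes per length. The level per length was 84.9 ± 16.3 CPM per kb for Sort1 and 42.9 ± 3.65 CPM per kb for Ntrk2 (SD, n = 4). Ntrk3 lay at 6.14 ± 0.703, Bdnf at 4.43 ± 2.01, Ngfr at 0.687 ± 0.202 and Ntf3 at 0.660 ± 0.299 CPM per kb in the same libraries. Neighbours in this order from Ntrk3 to Bdnf and from Ngfr to Ntf3 lay within their spread. The lengths are of all annotated exons together, which reach 30.17 kb in Ntrk3, and counts per gene cannot separate full-length TrkB and TrkC from their truncated forms. All levels below are CPM after scaling within 1 sex and are compared within that sex.

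Bdnf, on chromosome 2 (109674700 to 109727007, plus strand, 11 annotated transcripts), fell on all 3 restricted diets in males. Control-fed males had 29.8, 44.3, 18.0 and 18.0 CPM, in Control 1, 3, 4 and 5. IleR-fed males had 12.3, 12.2 and 13.7 CPM, LeuR-fed males 11.3, 12.4 and 16.5 CPM, and ValR-fed males 8.28, 9.10, 12.1 and 9.88 CPM. Every restricted male was below every Control-fed male, with LeuR 21 at 16.5 CPM closest to Control. Bdnf was 2.16-fold lower on IleR (log2 fold change -1.11, SE 0.282, edgeR quasi-likelihood adjusted p = 0.0181), 2.05-fold lower on LeuR (-1.04, SE 0.282, adjusted p = 0.0344) and 2.79-fold lower on ValR (-1.48, SE 0.261, adjusted p = 0.00128). Control 3 carried much of this difference, since the log2 fold changes without it were -0.78, -0.71 and -1.15, and on LeuR the adjusted p was then 0.0889. The LeuR call was also lost without Control 1, IleR 14, LeuR 19 or LeuR 20, and the IleR call without IleR 13 or IleR 14. With all libraries of both sexes in 1 fit the adjusted p was 0.0512 on IleR and 0.0702 on LeuR, and with only LeuR and Control fitted it was 0.143. An antisense gene, Gm45346, shares 896 exon bases with Bdnf, and without strand in the counting its reads cannot be told apart from those of Bdnf.

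Ntf3, on chromosome 6 (126101412 to 126166910, minus strand), was among the lowest of the 6 genes per length and was not called on any diet. It had between 4 and 35 counts in a male library and between 6 and 54 in a female library. The lowest level in males was 0.226 CPM in LeuR 21 and the highest was 2.69 CPM in LeuR 20, so the range of the whole sex lay within LeuR alone. The log2 fold change against Control was 0.23 on IleR, -0.04 on LeuR and -0.37 on ValR, with SE from 0.711 to 0.756 and edgeR adjusted p from 0.769 to 0.981.

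Ntrk2, the gene of the BDNF receptor TrkB on chromosome 13 (58806569 to 59133970, plus strand), fell on ValR. Control-fed males had 821, 914, 742 and 831 CPM and ValR-fed males 538, 576, 488 and 506 CPM, with no overlap. The log2 fold change on ValR was -0.65 (SE 0.136, edgeR adjusted p = 0.00374). IleR-fed males, at 665, 689 and 536 CPM, were also below every Control-fed male, but with -0.39 the adjusted p was 0.0893. Ntrk2 was called on IleR by DESeq2 (adjusted p = 0.0341), and in edgeR without LeuR 20 (0.0494) and without LeuR 21 (0.0401). LeuR-fed males overlapped Control at 718, 575 and 902 CPM (-0.18, adjusted p = 0.471), and the value of 902 CPM was that of LeuR 21, the LeuR-fed male with the lowest hindbrain score.

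Ntrk3, the gene of the neurotrophin 3 receptor TrkC on chromosome 7 (78175959 to 78738012, minus strand), was not called by edgeR on any diet against Control. Control-fed males had 195, 207, 180 and 158 CPM, and ValR-fed males had 276, 186, 264 and 251 CPM, all but ValR 9 above Control. The log2 fold change on ValR was 0.40 (SE 0.143, edgeR adjusted p = 0.0592), and without ValR 9 it was 0.51 with an adjusted p of 0.0141. Ntrk3 was also called on ValR by DESeq2 (adjusted p = 0.0438), and in edgeR with a minimum of 10 counts (0.0458), without LeuR 19 (0.0451) and without LeuR 20 (0.0454). It was 0.17 on IleR (adjusted p = 0.503) and -0.24 on LeuR (adjusted p = 0.355).

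Ngfr, the p75 receptor gene on chromosome 11 (95568818 to 95587735, minus strand), rose on all 3 restricted diets in males and by more than any other of the 6 genes. Control-fed males had 1.97, 1.83, 3.37 and 2.29 CPM. IleR-fed males had 10.6, 9.08 and 10.2 CPM, LeuR-fed males 15.5, 11.8 and 19.1 CPM, and ValR-fed males 8.13, 9.91, 9.02 and 7.39 CPM. The lowest restricted male was thus above the highest Control-fed male on each diet. Ngfr was 4.19-fold higher on IleR (log2 fold change 2.07, SE 0.220, edgeR adjusted p = 0.000746), 6.54-fold higher on LeuR (2.71, SE 0.222, adjusted p = 0.000262) and 3.63-fold higher on ValR (1.86, SE 0.210, adjusted p = 0.000131). Of 22197 genes tested, Ngfr had the lowest p-value on LeuR, where it ranked 1, and it ranked 8 on IleR and 98 on ValR. When only LeuR and Control were fitted, 0 of all genes passed in edgeR, with adjusted p of 0.0615 for Ngfr and 0.0862 for Sort1. The counts behind the Control levels were low, between 29 and 53 per library.

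Sort1, the sortilin gene on chromosome 3 (108284082 to 108361511, plus strand), fell on all 3 restricted diets in males. Control-fed males had 706, 708, 458 and 698 CPM, and Control 4 was the low one. IleR-fed males had 371, 310 and 329 CPM, LeuR-fed males 353, 420 and 271 CPM, and ValR-fed males 287, 312, 321 and 320 CPM. Every restricted male was below Control 4, the lowest Control-fed male, and the lowest of all was LeuR 21 at 271 CPM, the restricted male with the lowest hindbrain score. The fall was 1.91-fold on IleR (log2 fold change -0.93, SE 0.169, edgeR adjusted p = 0.00303), 1.85-fold on LeuR (-0.89, SE 0.169, adjusted p = 0.00851) and 2.07-fold on ValR (-1.05, SE 0.155, adjusted p = 0.000411). The antisense gene Gm12523 shares 338 exon bases with Sort1.

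**Figure D1:**
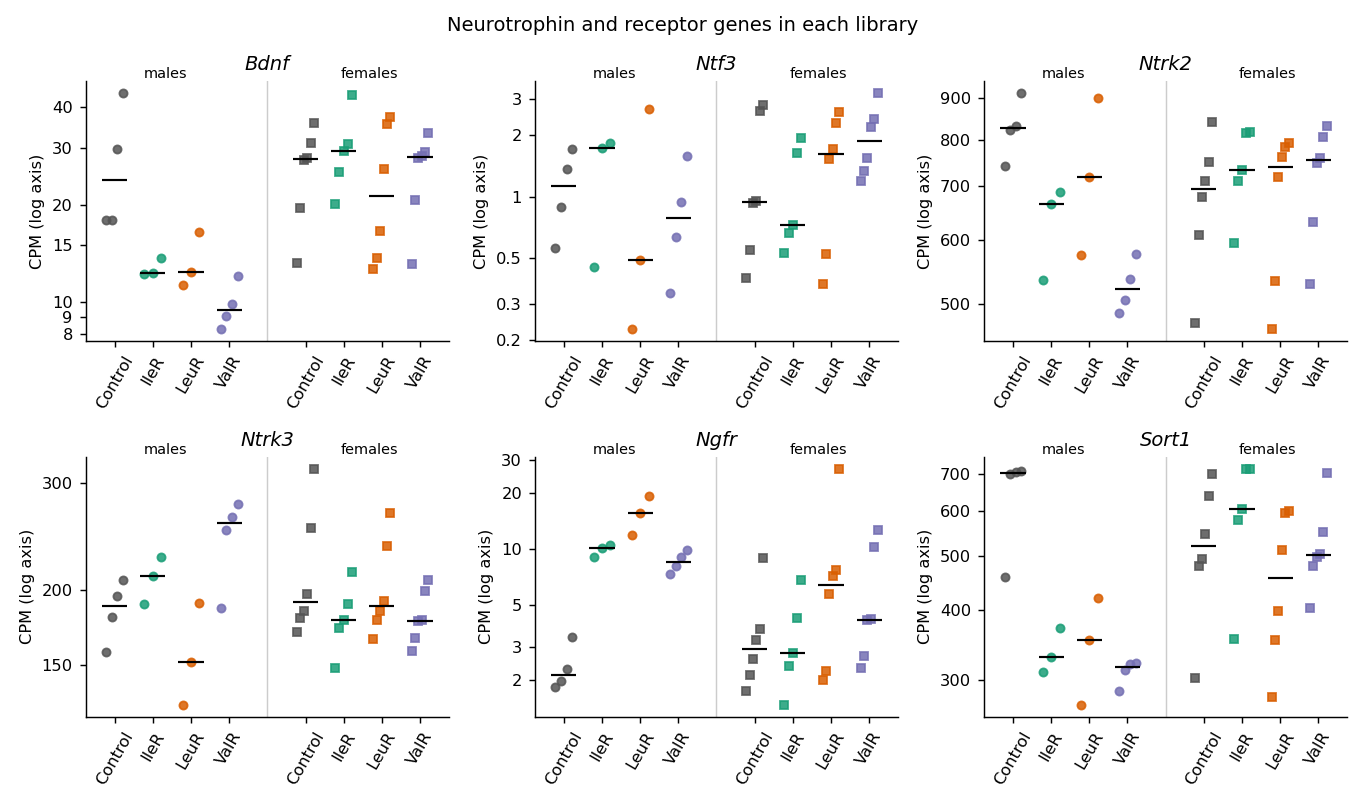
Level of each gene in each library by sex and diet, in CPM on a log axis scaled within each sex. Each point is 1 library, and black lines mark group medians. In males, the Bdnf and Sort1 points of all restricted diets lie below Control and the Ngfr points lie above it, while the female groups overlap for every gene.

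In males, edgeR thus called 3 of the 6 genes on IleR, 3 on LeuR and 4 on ValR, against 15.3%, 10.1% and 23.5% of all genes tested. The calls were 1 rise and 2 falls on IleR, where 6.63% of genes were called higher and 8.68% lower, and 1 rise and 2 falls on LeuR, where 3.81% were called higher and 6.33% lower. On ValR they were 1 rise and 3 falls, where 11.1% of genes were called higher and 12.4% lower. Restricted and Control-fed males did not overlap for 4 of the 6 genes on IleR, 3 on LeuR and 4 on ValR, against 29.3%, 17.7% and 26.4% of all genes. The 3 comparisons share the Control libraries.

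Between the restricted diets in males, edgeR called Ngfr and Ntrk3 between ValR and LeuR and no other of the 6 genes, where DESeq2 called 3 and limma voom 2. Ngfr was lower on ValR than on LeuR (log2 fold change -0.85, SE 0.209, edgeR adjusted p = 0.0497), with all 4 ValR-fed males below all 3 LeuR-fed males. These 2 groups did not overlap for 3970 of 22197 genes tested. Ntrk3 was higher on ValR (0.64, SE 0.157, adjusted p = 0.0497), with ValR 9 at 186 CPM below LeuR 20 at 190 CPM. These 2 calls of 6 compare with 2.75% of all genes, and leaving out any 1 of 11 of the 14 male libraries ended both calls. ValR and IleR differed in 0 of the 6 genes in edgeR, with 0 at an unadjusted p under 0.05 and 0 in DESeq2 and limma voom, and 0.0% of all genes were called. Bdnf was lower in all ValR-fed than in all IleR-fed males, but by a log2 fold change of -0.37 (95% interval -0.97 to 0.23). ValR-fed and IleR-fed males did not overlap for 1294 of 22197 genes. IleR and LeuR differed in 0 of the 6 genes in edgeR, DESeq2 and limma voom, where 0.0% of all genes were called in edgeR. Ngfr and Ntrk3 were the 2 with an unadjusted p under 0.05 there, with log2 fold changes of -0.64 (95% interval -1.13 to -0.16) and 0.41 (0.05 to 0.77).

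In females, edgeR called 0 of the 6 genes on IleR, 0 on LeuR and 0 on ValR against Control, where 0.0%, 0.0% and 0.0% of all genes were called. None reached an unadjusted p under 0.05 in edgeR, and none was called by DESeq2 or limma voom. Female Bdnf had a lowest, median and highest level of 13.2, 27.7 and 35.7 CPM on Control and 13.2, 28.1 and 33.3 CPM on ValR, and the log2 fold change on ValR was -0.02 (95% interval -0.62 to 0.58). Female Sort1 was at 302, 521 and 700 CPM on Control and at 403, 500.4 and 701 CPM on ValR (-0.01, 95% interval -0.45 to 0.42). These intervals do not reach the male ValR values of -1.48 for Bdnf and -1.05 for Sort1. Female Ngfr was at 1.74, 2.94 and 8.97 CPM on Control and at 2.00, 6.46 and 27.0 CPM on LeuR, and the log2 fold change (95% interval -0.02 to 2.42, adjusted p = 0.968) did not pass. The comparisons between the restricted diets gave 0 calls among the 6 genes in females as well, with 0 in edgeR at an unadjusted p under 0.05 and 0 called in DESeq2 and limma voom.

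The effect of ValR differed between the sexes for Bdnf, Ntrk2 and Sort1. The male minus female difference in log2 fold change was -1.47 for Bdnf (SE 0.428, edgeR interaction adjusted p = 0.0452), -0.75 for Ntrk2 (SE 0.219, adjusted p = 0.0458) and -1.05 for Sort1 (SE 0.299, adjusted p = 0.0407). These 3 of 6 genes compare with 4.25% of all genes, DESeq2 called 4 of the 6 and limma voom 0, and leaving out any 1 of 20 of the 37 libraries brought the count to 0 or 1. For Ngfr the difference on ValR was 1.14 with an SE of 0.783 (adjusted p = 0.366), so a difference between the sexes was not shown. On IleR and LeuR 0 of the 6 genes passed, against 0.0979% and 0.00445% of all genes in edgeR. At an unadjusted p under 0.05 there were 4 on IleR and 1 on LeuR, and DESeq2 called Sort1 on IleR and none on LeuR, where it gave an adjusted p for 4 of the 6, while limma voom called none on either. The hindbrain score separated Control from restricted libraries in males and not in females, and its part in these differences was not tested.

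**Figure D2:**
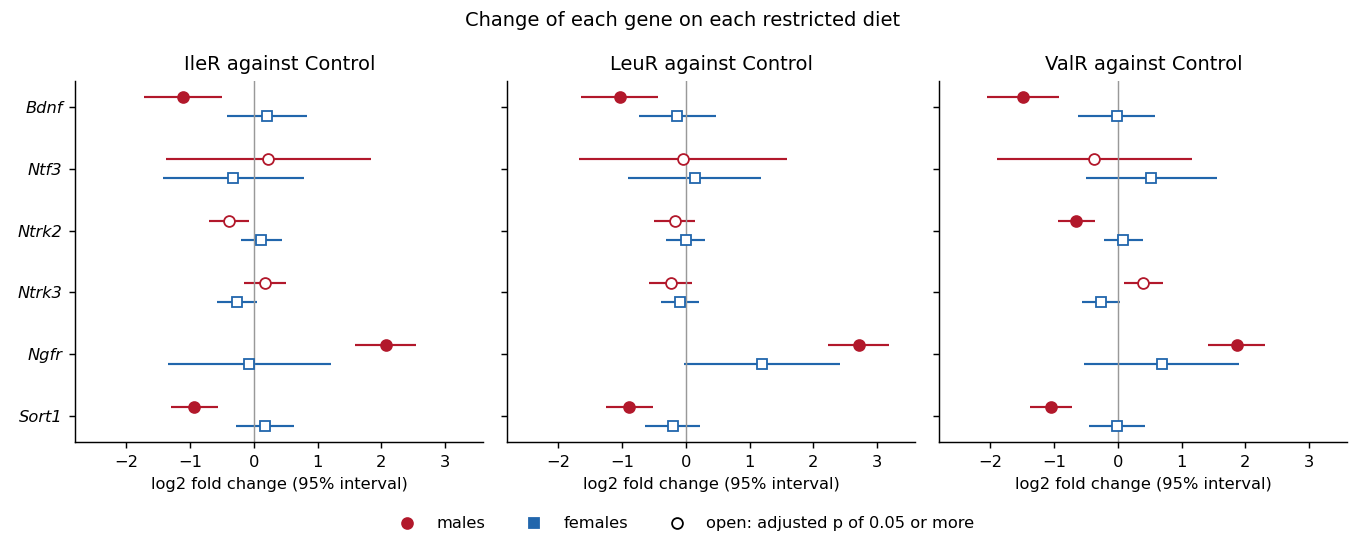
Log2 fold change of each gene on each restricted diet against Control in males (circles) and females (squares), with 95% intervals of the edgeR fit. Filled symbols have an adjusted p under 0.05. The female symbols are all open, and the male Ngfr symbols lie between 1.86 and 2.71.

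Each gene was set against the hindbrain score in females, where edgeR called no diet effect, and differences between genes or sets of libraries in these relations were not tested. The female libraries fell into 2 sets by their cerebellar markers, 15 with a mean log2 CPM of at most 3.16 and 8 with at least 6.70, and each diet had at least 2 libraries in both. In the 8 libraries rich in cerebellar markers, Bdnf ran from 12.7 to 31.1 CPM and fell with the score (Pearson r = -0.78, exact permutation p = 0.00382, adjusted over 12 relations 0.0153; Spearman rho = -0.90, adjusted p = 0.0137), and r was -0.97 without the 2 libraries farthest from the median score. Ntrk2 behaved alike there (r = -0.83, exact permutation p = 0.00246, adjusted 0.0147; rho = -0.90, adjusted p = 0.0137; -0.86 without the 2). Sort1 fell with the score in these 8 (r = -0.83, exact permutation p = 0.00568, adjusted 0.0170; rho = -0.81, adjusted p = 0.0436; -0.75 without the 2) and in the other 15 (r = -0.85, permutation p = 4e-05, adjusted 0.00048; rho = -0.91, adjusted p = 0.00024; -0.86 without the 2). With the forebrain markers left out of the score, r of Sort1 was -0.70 in the 8 (exact permutation p = 0.0563) and -0.47 in the 15 (permutation p = 0.0736), past the threshold in neither. In those 15, r was -0.30 for Bdnf (permutation p = 0.272) and -0.08 for Ntrk2 (permutation p = 0.768), neither past the threshold. With diet means subtracted, r was -0.65 for Bdnf and -0.74 for Ntrk2 in the 8, and -0.75 and -0.85 for Sort1 in the 8 and the 15. Ngfr had r = 0.60 in the 8 (exact permutation p = 0.105) and 0.49 in the 15 (permutation p = 0.0657), with rho = 0.81 (adjusted p = 0.0436) and 0.74 (adjusted p = 0.0137). With the forebrain markers left out of the score, r of Ngfr was 0.81 in the 8 (exact permutation p = 0.0150) and 0.03 in the 15 (permutation p = 0.929). With that score, r in the 8 was -0.77 for Bdnf (exact permutation p = 0.0269) and -0.73 for Ntrk2 (exact permutation p = 0.0378). The p-values without the forebrain markers were not adjusted over the 12 relations. Ntf3 and Ntrk3 had no relation past the threshold in either set, with r from -0.21 to 0.32. The 2 sets differ in the cerebellar share of the score itself, so no single r over 23 libraries is given.

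With the score as a covariate in the male fit, the values of Bdnf and Ntrk2 were smaller and those of Ngfr and Sort1 were not. Bdnf had log2 fold changes of -0.15, -0.35 and -0.34 on IleR, LeuR and ValR, and Ntrk2 had 0.00, 0.11 and -0.17, all with adjusted p of 0.869 or more. Sort1 had -0.94, -0.89 and -1.06, with adjusted p of 0.658, 0.519 and 0.646, and was no longer called. Ngfr had 2.21, 2.81 and 2.03 and passed on LeuR (adjusted p = 0.00815) but not on IleR (0.571) or ValR (0.646). Over all genes, this fit called 2 on IleR, 11 on LeuR and 0 on ValR. The scores of Control-fed and restricted males did not overlap, so score and diet cannot be told apart in these 14 libraries. The same fit called 0 of the 49 pathway genes described below on each diet.

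**Figure D3:**
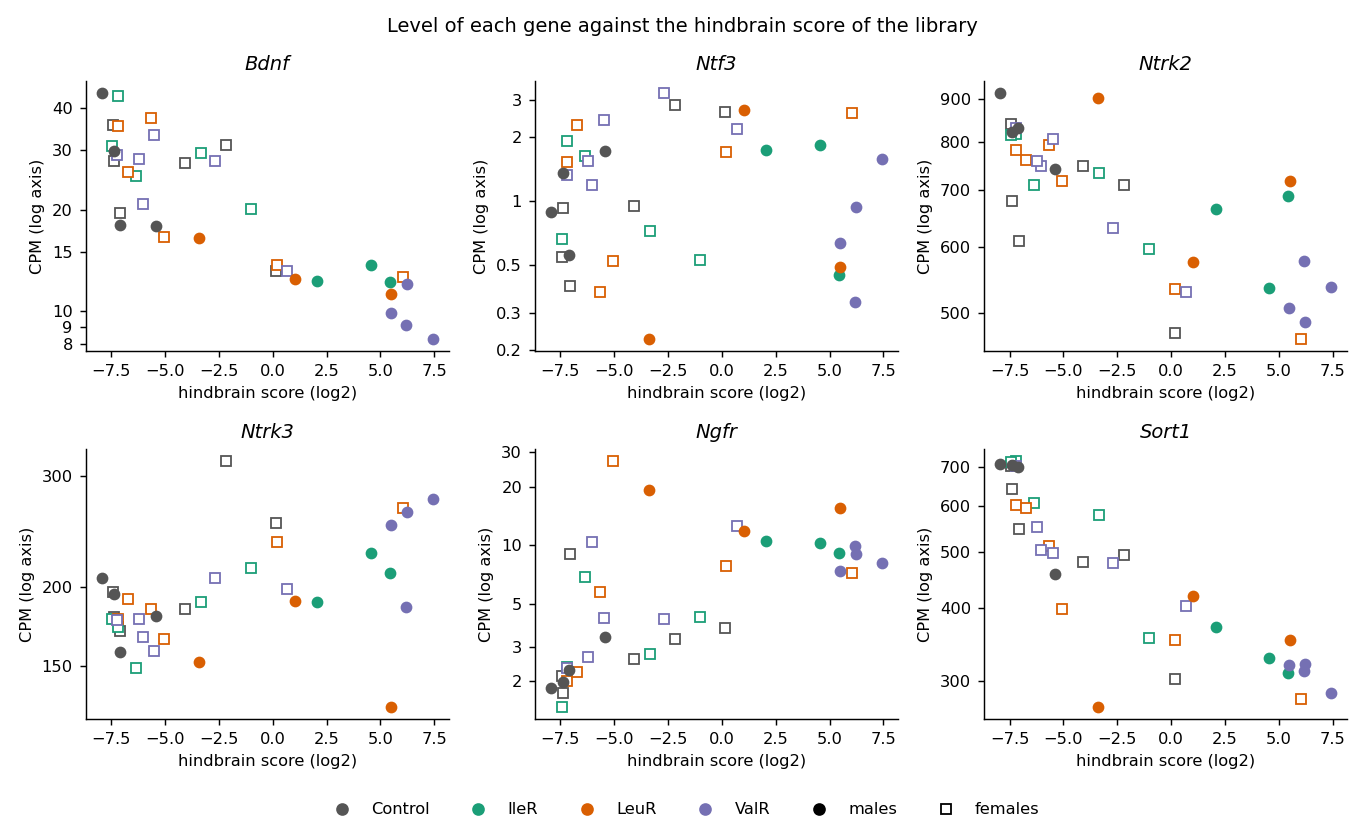
Level of each gene (CPM on a log axis, scaled within each sex) against the hindbrain score of the library, with males filled and females open and diets in colour. Sort1 and Bdnf are low in libraries of high score in both sexes, but the lowest Sort1 point, of LeuR-fed male 21 (271 CPM), lies at a low score. The Ngfr points of LeuR-fed male 21 (19.1 CPM) and LeuR-fed female 43 (27.0 CPM) lie high at a low score.

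Markers of cholinergic neurons were set beside Ngfr in each library, and their part in its level was not tested. Female LeuR 43 had 27.0 CPM of Ngfr and 16.4 CPM of Lhx8, a transcription factor of basal forebrain cholinergic neurons. Female Control 25 had 8.97 CPM of Ngfr with 5.77 CPM of Lhx8, and female ValR 33 had 10.3 and 9.07 CPM of the same genes. Female ValR 36 had 12.6 CPM of Ngfr with 0.00 CPM of Lhx8 and 221 CPM of Gabra6. Male LeuR 21 had the highest male Ngfr, 19.1 CPM, with 6.04 CPM of Lhx8, the highest male value, and 0.00 CPM of Gabra6. In the other 9 restricted males Lhx8 had at most 1 count, and their Ngfr was between 7.39 and 15.5 CPM. Chat, Slc18a3 and Slc5a7, the genes of acetylcholine synthesis and of its vesicular and choline transporters, were above every Control-fed male in 7 of these 9, all but IleR 17 and ValR 12. In IleR 13, for example, Slc18a3 and Slc5a7 were at 16.9 and 64.2 CPM, and in Control 1, the highest Control-fed male, at 3.27 and 12.4 CPM. The 5 cholinergic markers together summed to between 2.49 and 24.3 CPM in Control-fed males, and to between 7.88 and 119.6 CPM in restricted males. Gbx1, another of these markers, was at 5.11 and 8.76 CPM in ValR 7 and ValR 9, where Lhx8 had 0 counts. Of the 4 cholinergic markers tested, edgeR called 2 higher and none lower on each restricted diet. Of all genes, 6.63%, 3.81% and 11.1% were called higher on IleR, LeuR and ValR. Lhx8 did not pass the filter on low counts in males and was not tested. It had 24, 0, 5 and 7 counts in male Control 1, 3, 4 and 5. Without LeuR 21, Ngfr on LeuR was still called in edgeR, with a log2 fold change of 2.55.

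The gene of neurotrophin 4, Ntf5, was scarce, and its log2 fold changes of -0.23, 1.53 and -0.50 on IleR, LeuR and ValR were not past the threshold. The sortilin relatives Sorcs1, Sorcs2 and Sorcs3 fell on ValR with Sort1 (-0.74, -1.41 and -1.04), and Sorcs3 also on IleR (-0.93), while Sorl1, known as a sorting receptor of APP, was at 0.69 on ValR with an adjusted p of 0.102.

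Of 13 Trk adaptors and effectors, 3 rose and 2 fell on ValR, where 11.1% of all genes were called higher and 12.4% lower. The neuronal Shc adaptors Shc2 and Shc3 fell on ValR, by 0.95 and by 1.27 on the log2 scale, while Frs2, Ptpn11 and Sos1 rose by 0.24, 0.25 and 0.26. On IleR Sos1 rose and Shc2 fell, and on LeuR only Shc3 fell. Of 10 partners of p75, Lingo1 and Rtn4r, which form the Nogo receptor complex with it, fell on all 3 diets, with -2.43, -2.05 and -2.67 for Lingo1 and -1.81, -2.53 and -1.55 for Rtn4r. Zfp110, also called NRIF, rose on IleR and ValR (0.56 and 0.63), and Arhgdia fell on ValR (-0.37).

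Genes that process or release neurotrophins moved both ways. Cpe, the sorting protein carboxypeptidase E, fell on all 3 diets (-0.69, -0.60 and -1.13), as did Serpini1, an inhibitor of tissue plasminogen activator (-0.78, -0.77 and -0.80). Pcsk6, a proprotein convertase, rose on IleR and ValR (1.44 and 1.72), Plat, the gene of tissue plasminogen activator, rose on the same diets (0.55 and 0.44), and Furin rose on ValR (0.43). Of 6 genes that neurons induce with BDNF and activity, Arc, Egr1, Homer1 and Dusp6 fell on each diet. Of all genes, 8.68%, 6.33% and 12.4% were called lower on IleR, LeuR and ValR. Counts per gene cannot separate the transcript forms of these genes. The log2 fold changes of Arc were -2.82, -2.78 and -3.01, those of Egr1 -3.00, -3.08 and -2.96, those of Homer1 -2.94, -2.86 and -3.03, and those of Dusp6 -1.74, -1.39 and -1.47. Fos and Vgf were not called on any diet, with Fos at -0.34, -0.33 and -0.79. Of 6 regulators of Bdnf transcription, Mef2c fell on each diet (-3.58, -3.22 and -3.85), Npas4 on ValR (-1.79) and Crtc1 on LeuR (-0.92), and Creb1 and Rest were not called.

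In all, 4 of 49 pathway genes rose and 11 fell on IleR, 0 rose and 11 fell on LeuR, and 7 rose and 17 fell on ValR, and 9 of them, all falling, were called on every diet. Of all genes, 6.63% rose and 8.68% fell on IleR, 3.81% and 6.33% on LeuR, and 11.1% and 12.4% on ValR. DESeq2 called 22, 15 and 26 pathway genes on the 3 diets, and 0 were called in edgeR on LeuR when only LeuR and Control were fitted. The median log2 fold change of the 49 was -0.15, -0.14 and -0.13 on the 3 diets, and that of all genes tested was 0.04, 0.05 and 0.03. The forebrain markers fell in the same libraries, 8 of 8 on IleR, 5 of 8 on LeuR and 8 of 8 on ValR, and the cerebellar markers rose, 8, 7 and 8 of 8. In females edgeR called 0 of 48 pathway genes tested on each diet, with 0, 0 and 1 at an unadjusted p under 0.05 on IleR, LeuR and ValR, and DESeq2 and limma voom called 0. In edgeR the male and female effects of ValR differed for 7 of the 49, against 4.25% of all genes, with 17 called by DESeq2 and 1 by limma voom. Among the 7 were Lingo1 (-2.55), Cpe (-1.22), Mef2c (-3.75), Arc (-2.93), Egr1 (-2.91) and Homer1 (-2.76). The effects of IleR and LeuR differed for 0, where 16 and 13 had an unadjusted p under 0.05 in edgeR, DESeq2 called 8 and 6, and limma voom called 0.

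**Figure D4:**
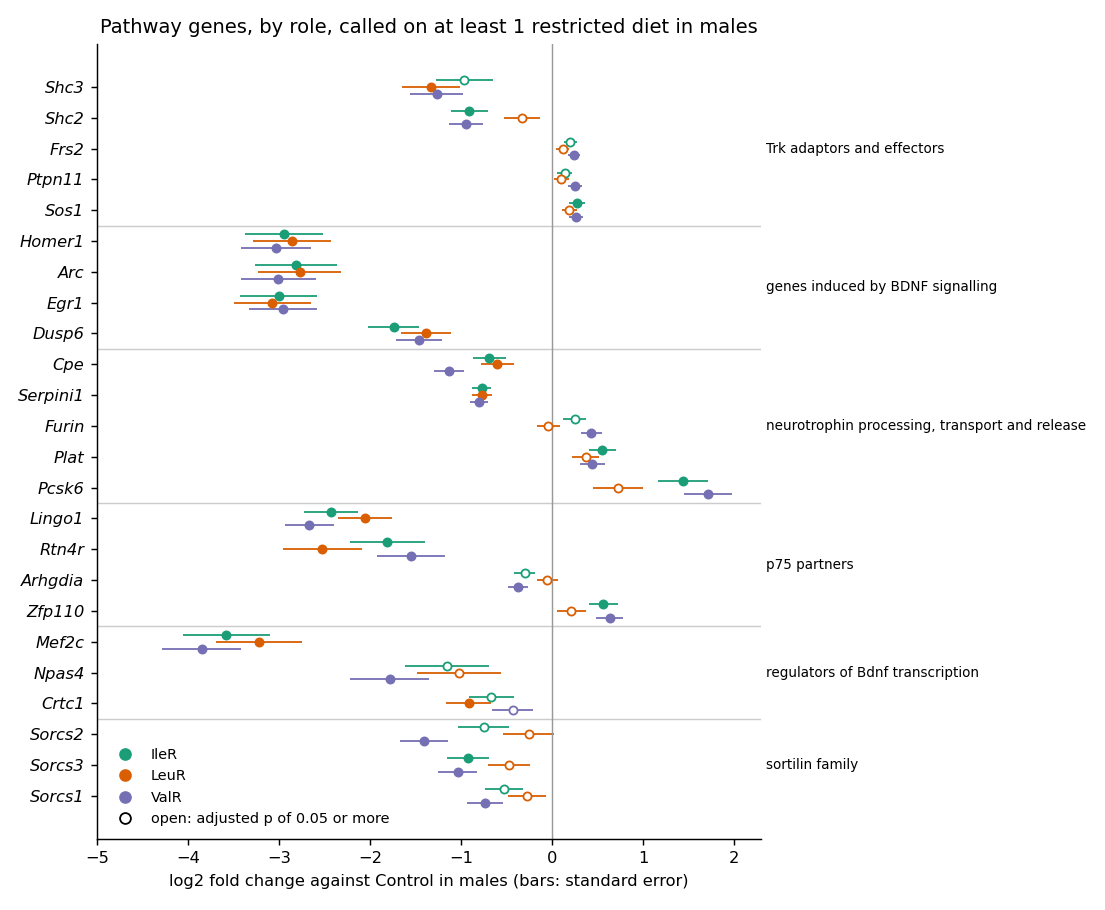
Log2 fold change against Control in males of pathway genes called on at least 1 restricted diet, for 6 of the 7 groups by role (the other ligands and receptors are not drawn), with bars of 1 standard error and filled symbols for an adjusted p under 0.05. Homer1, Arc, Egr1 and Mef2c lie near -3 or below on every diet, and Pcsk6 lies farthest to the right.

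Over the 23 female libraries, the genes most like each of the 6 in log2 CPM were taken from 12918 genes, and the same libraries, depth and region makeup stand behind each pair. Bdnf was nearest to Hectd2, Pcsk1 and Btbd9 (r = 0.898, 0.897 and 0.895), which had r of 0.935, 0.863 and 0.915 with it over the 14 male libraries. Pcsk1, a proprotein convertase, was also among the 3 nearest to Ntrk2 (r = 0.941), after Itsn2 (0.957) and Stxbp6 (0.942), and over the males Itsn2 was at 0.598, Stxbp6 at 0.928 and Pcsk1 at 0.830. Sort1 was nearest to Tmem151a, Opcml and Smim13 (0.976, 0.967 and 0.965, and over the males 0.816, 0.899 and 0.968). Ngfr was nearest to Gtf2ird1, Vat1l and P2ry1 (0.841, 0.797 and 0.789, and over the males 0.544, 0.919 and 0.787). Ntrk3 was nearest to Chka, Chfr and Ndst3 (0.904, 0.885 and 0.880, and over the males 0.866, 0.795 and 0.877). Ntf3 was nearest to Inhbb, Spon1 and Morn1 (0.764, 0.754 and 0.741), but over the male libraries these were at 0.0353, -0.216 and -0.254. Among the 6 genes, Bdnf, Ntrk2 and Sort1 went together in females, with r from 0.82 to 0.88, and in males their r ran from 0.59 to 0.82. Ngfr and Sort1 went against each other, with r = -0.89 in males and -0.57 in females. The male r pools Control-fed and restricted males, whose levels of Ngfr and of Sort1 did not overlap.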

How the data were processed

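RNA-seq of 37 brain libraries was analysed, 14 from males and 23 from females. The authors deposited RSEM expected counts per gene in 1 table for each sex (GRCm38, GENCODE M21), of which between 3.69% and 4.93% of the values in a library were not whole, and these were rounded. The sources state the RNA selection in more than 1 way. The submitters' processing notes name R 3.4.3, edgeR and limma. Deposited tables of the authors' own comparisons hold log2 fold changes and p-values and were not used.

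Counts were fitted in edgeR 4.0.16 (R 4.3.3) by the quasi-likelihood test with TMM scaling, each sex apart with its 4 diets in 1 fit, keeping a gene where all libraries of some diet had 1 count or more, and p-values were adjusted by Benjamini-Hochberg over all genes tested (threshold 0.05). The sexes were compared by an interaction term over the 37 libraries, with male effect minus female effect. Alternatives were DESeq2 1.42.0, limma voom (limma 3.58.1), other filters, other sets of libraries, leaving out each library, and the hindbrain score as a covariate. The within-set correlations of females were added after seeing the data. Log2 CPM used a prior count of 2. The code was tested on simulated data. The 6 genes, the pathway list of 49 genes in 7 groups by role and the region and cell type markers were chosen with earlier results of these data known. All 6 genes are named, other pathway genes where called or where their group is described, and for each of the 6 the 3 genes with the highest correlation in females. The labels do not say that replicates came from separate litters or batches, and p-values measure the spread between these libraries. All 73 pairs of libraries of 1 group differed by more than sampling noise. Single values of a few genes of these lists are not reported here, and the counts over the lists include them.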

Additional observations from a re-analysis of the deposited data

Results flagged for a closer look

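In all, 3 values stood apart from their own group by Dixon's test, out of 36 groups tested, and chance alone would single out some of so many groups. Female Control 25 had 8.97 CPM of Ngfr, with the next Control-fed female at 3.75 CPM. Female LeuR 43 had 27.0 CPM of Ngfr, with the next LeuR-fed female at 7.77 CPM. Male Control 4 had 458 CPM of Sort1, with the next Control-fed male at 698 CPM.

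The effect of ValR differed between males and females in the edgeR interaction term for Bdnf (-1.47 on the log2 scale, male minus female, adjusted p = 0.0452), Ntrk2 (-0.75, adjusted p = 0.0458) and Sort1 (-1.05, adjusted p = 0.0407). The hindbrain score of Control-fed and ValR-fed libraries did not overlap in males and overlapped in females, and its part was not tested.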

How the results depend on the processing

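Of 563 combinations of a log2 fold change and a setting, 431 kept direction and side of the threshold, 114 lost the call, 8 gained one and 10 changed sign. With the hindbrain score as a covariate, the count of the 6 genes called was 0 on IleR, 1 on LeuR, 0 on ValR and 0 for ValR against LeuR. With only the 2 groups compared it was 0 on LeuR and 0 for ValR against LeuR, and with all libraries in 1 fit it was 0 for ValR against LeuR. The interaction count was 1 on IleR in DESeq2 and 0 on ValR in limma voom. Leaving out 1 library gave 0 to 3 genes for ValR against LeuR, 0 to 1 for the IleR interaction and 0 to 4 for the ValR interaction. The last fell to 0 or 1 without male Control 1, 3 or 5, ValR 7, 9, 10 or 12, IleR 13 or 14, or female Control 25, 27, 29 or 30, ValR 31 to 35, IleR 40 or 42. The call of Bdnf on LeuR was lost in limma voom (adjusted p = 0.0508), and DESeq2 also called Ntrk2 on IleR (adjusted p = 0.0341) and Ntrk3 on ValR (adjusted p = 0.0438). The cause of these changes was not tested. Ntf3 on IleR changed sign in limma voom (-0.0045), with the covariate (-0.55) and without IleR 13 or 17, and on LeuR without Control 1 or 4 or LeuR 19 or 21. Leaving out 1 library gave Ntf3 values from -0.094 to 0.66 on IleR and from -1.61 to 0.46 on LeuR. Ntrk2 changed sign with the covariate on IleR (0.0035) and LeuR (0.11). With the forebrain markers left out of the score, r in the 15 females changed sign for Bdnf (0.0867), Ntf3 (0.149), Ntrk2 (0.160) and Ntrk3 (0.0178). No paired analysis was possible because each library has a number of its own. Ntf3 had 4 to 35 counts in a male library, so its values carry the most counting error.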
